A study of Mus musculus with 2 samples.

Results

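In the skin of imiquimod-treated mice, 200 Visium spots were taken as the part of the epidermis richest in differentiated keratinocytes, 100 in each of 2 sections, out of 2043 spots with at least 500 unique molecular identifiers (UMIs, counted RNA molecules). The sections came from 1 S1pr2 f/f mouse and 1 S1pr2 f/f K14-Cre mouse. In both mice the S1pr2 gene, which encodes a receptor for the lipid sphingosine 1-phosphate, carried floxed alleles on each copy. In the second mouse Cre recombinase was driven by the keratin 14 promoter, which is active in basal keratinocytes, so the gene was to be lost in the epidermis and its appendages but kept in the dermis. Each mouse was 8 weeks old, had its back depilated, and then received 5% imiquimod (IMQ) cream, a ligand of Toll-like receptor 7 that gives psoriasis-like inflammation, every day for 7 days. No untreated section was analysed here, so each value below belongs to inflamed skin.

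The spots were chosen in each section by 2 ranks. The 200 spots with the largest share of UMIs from Krt5, Krt14, Krt1, Krt10, Dsp, Perp, Sfn and Lgals7 were kept as keratinocyte spots. Of these, the 100 with the highest ratio of Krt1, Krt10, Flg and Hrnr UMIs to Krt5 and Krt14 UMIs, with 1 UMI added to each side, are called differentiated spots, and the remaining 100 are called the other keratinocyte spots. They came from 1096 spots in the f/f section and 947 in the K14-Cre section. Since measured values chose the spots, and each genotype had 1 section, all differences are given as descriptions with no test. Intervals are 95% and cover counting error only. A spot is a small area of tissue that can hold several cells, and fewer cells of a type and less RNA per cell cannot be told apart.

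The epidermis renews itself from a basal layer of dividing keratinocytes held together by keratins 5 and 14. As these cells move up they switch to keratins 1 and 10, then make filaggrin, hornerin and loricrin, and finally crosslink loricrin, involucrin, small proline-rich and late cornified envelope proteins into the tough shell of the dead outer cells. In psoriasis the epidermis thickens, the stress keratins 6, 16 and 17 appear, and this late programme changes. Many of the late genes lie side by side in the epidermal differentiation complex, which in the mouse is on chromosome 3.

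By the values that chose them, the spots bore their name in the f/f section and only in part in the K14-Cre section, which is a description and no independent check. In the f/f section the ratio ran from 1.21 to 11.5 with a median of 2.59, so that all 100 spots held more differentiation than basal keratin UMIs. In the K14-Cre section it ran from 0.160 to 2.86 with a median of 0.345, and 19 of 100 spots were above 1. There the differentiated spots were the upper part of a keratinocyte class in which basal keratin UMIs prevailed, and only 16 of its 200 keratinocyte spots reached the lowest ratio of the f/f differentiated spots. Conversely, 196 of the 200 f/f keratinocyte spots reached the lowest ratio of the K14-Cre differentiated spots.

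The lines between the classes were not gaps. The last spot kept in the f/f section had a ratio of 1.214 and the first left out had 1.206. In the K14-Cre section these were 0.160 and 0.1596.

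**Figure D1:**
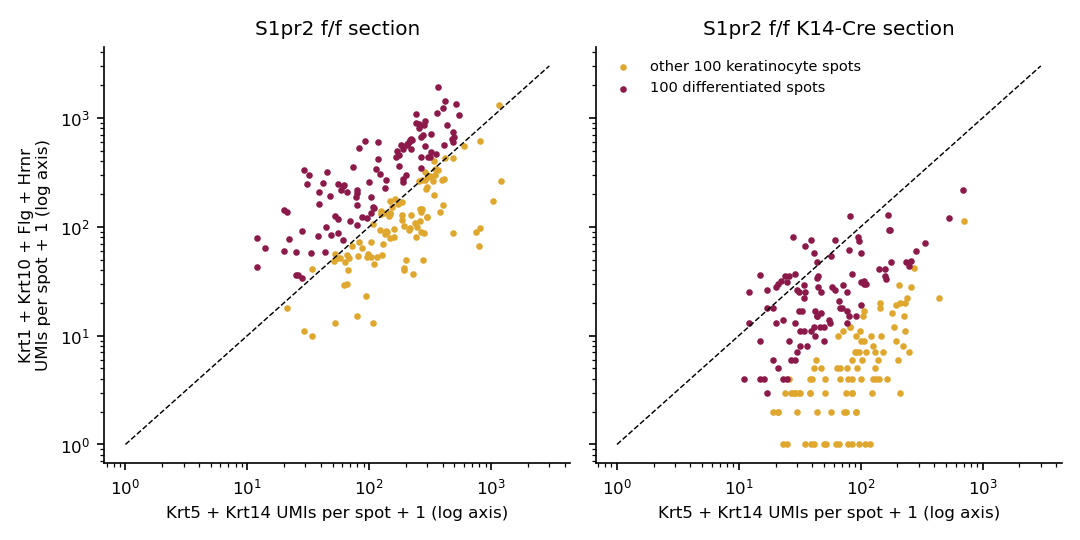
Summed UMIs of Krt1, Krt10, Flg and Hrnr (vertical, log axis, 1 added) against those of Krt5 and Krt14 (horizontal, log axis, 1 added) in each keratinocyte spot, with the line of equal counts dashed. In the f/f section all 100 differentiated spots (dark red) lie above the line, and in the K14-Cre section 19 of 100 do.

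The differentiated spots of the f/f section held 580665 UMIs, 554 to 17005 in a spot (median 4057), and those of the K14-Cre section 283665, 506 to 16277 in a spot (median 1970.5). The other keratinocyte spots held 577709 and 350700 UMIs, with medians of 4126 and 2827.5. Depth was therefore similar between the classes in the f/f section and lower in the differentiated spots of the K14-Cre section. The libraries had 357 spot barcodes in common, which is the same array position used on different arrays. Levels are given as UMIs per 1000000 (CPM) of the summed spots, and ratios as log2 with 0.5 UMIs added. Probes for chemosensory receptor genes, which are mostly silent outside sensory tissue, gave a measure of background: their 1226 genes averaged 0.759 UMIs each over the 100 f/f differentiated spots and 2.39 over the 100 K14-Cre ones.

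The targeted gene was at the edge of detection. S1pr2 itself gave 17 UMIs in the f/f differentiated spots (29.3 CPM) and 7 in the other keratinocyte spots, and 3 and 8 UMIs in the K14-Cre section. The ratio of the sections in the differentiated spots was -1.29 on the log2 scale with an interval from -3.88 to 0.32, so a loss of the transcript was not detectable at this depth, and 3 UMIs is close to the mean of 2.39 for receptor genes in the same spots. Whether the probes for S1pr2 bind inside the floxed part is not given in the sources used here, so the gene is no check of the labels.

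The differentiated spots followed the upper rim of the tissue. In the f/f section 78% of them (Clopper-Pearson interval 68.6 to 85.7) were among the 2 uppermost spots of their array column, against 94% (87.4 to 97.8) of the other keratinocyte spots and 18.1% of the remaining spots. In the K14-Cre section the shares were 93% (86.1 to 97.1), 99% and 26.5%. The lower share of the f/f section went with its curled end, where differentiated spots also lined the lower side. They came in runs: 76.0% of the neighbouring keratinocyte spots of an f/f differentiated spot were themselves differentiated, and 84.8% in the K14-Cre section, where even mixing would give 49.7%. The runs formed 14 connected groups in the f/f section, the largest of 29 spots, and 17 in the K14-Cre section, the largest of 40 spots.

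**Figure D2:**
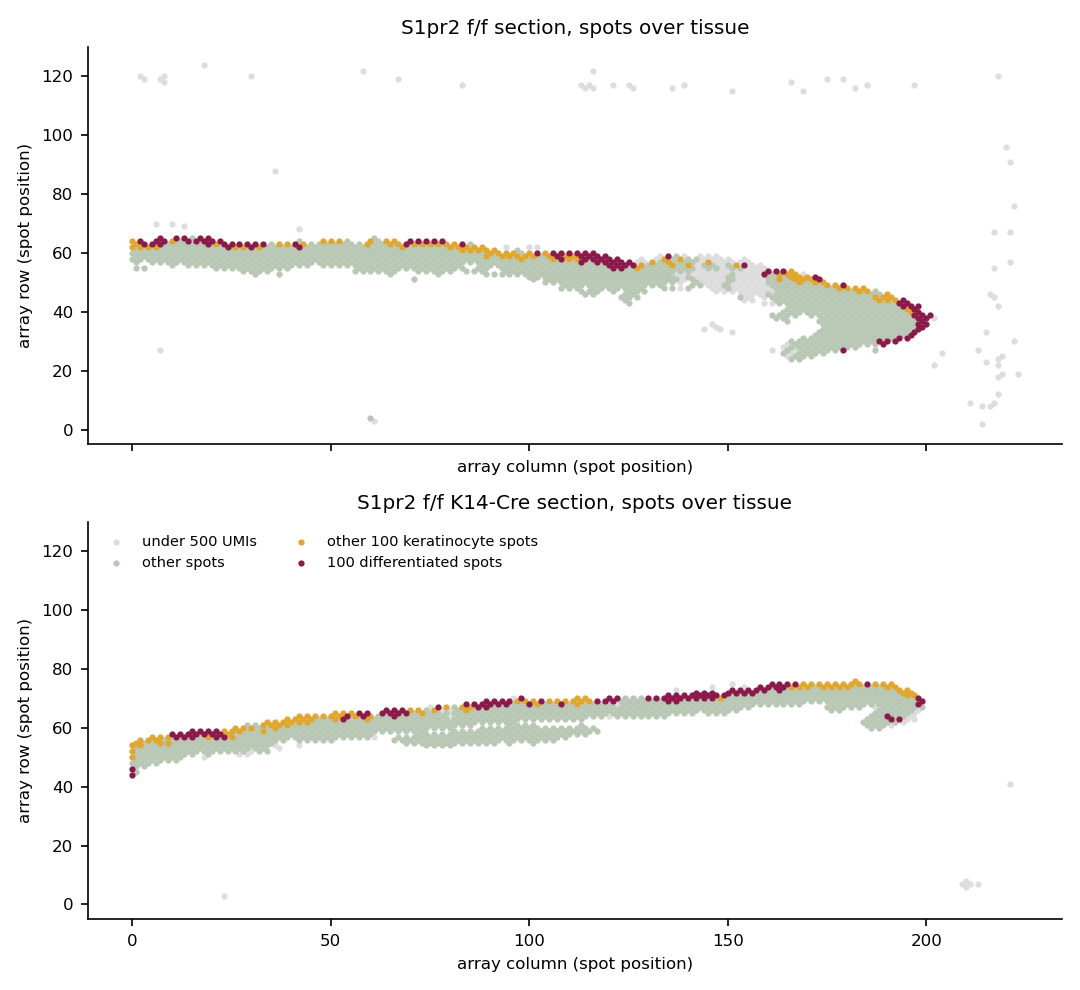
Array row against array column (spot positions, no unit of length) of every spot over tissue in each section, coloured by class. The differentiated spots (dark red) alternate in runs with the other keratinocyte spots (gold) along the upper rim, and 78% of them in the f/f section and 93% in the K14-Cre section are among the 2 uppermost spots of their column.

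A set of 4 genes of the epidermal differentiation complex was taken from the gene families described below. The 250 bases before the annotated start of each are shown here (RefSeq, GRCm38.p6, 5′ to 3′ on the gene's strand). Lor and Sprr1a were the extremes of their lists and not typical members. The list medians were 0.09 and -0.01 for envelope precursors and -0.81 and -0.70 for small proline-rich genes. In the sums of each section Lor and Lce1a2 were higher and Sprr1a and Lce3a lower in the differentiated spots. On the log2 scale Lce1a2 (0.82) and Lce3a (-0.35) were under 2-fold in the f/f section. Lce3a (-0.51) was also under 2-fold in the K14-Cre section. Capitals mark TGANTCA (N is any base), the letters bound by AP-1 factors, and TATAAA, the TATA box, on either strand.
Lor: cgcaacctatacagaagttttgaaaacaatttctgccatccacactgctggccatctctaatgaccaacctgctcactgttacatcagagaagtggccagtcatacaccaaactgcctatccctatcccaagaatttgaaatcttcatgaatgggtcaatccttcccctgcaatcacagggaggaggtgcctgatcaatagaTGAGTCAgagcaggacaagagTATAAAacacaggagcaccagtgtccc
Lce1a2: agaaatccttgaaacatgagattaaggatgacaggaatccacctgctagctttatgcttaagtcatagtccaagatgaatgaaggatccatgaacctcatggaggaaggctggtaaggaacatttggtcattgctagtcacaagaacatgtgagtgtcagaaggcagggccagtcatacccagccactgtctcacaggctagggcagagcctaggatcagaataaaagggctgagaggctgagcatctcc
Sprr1a: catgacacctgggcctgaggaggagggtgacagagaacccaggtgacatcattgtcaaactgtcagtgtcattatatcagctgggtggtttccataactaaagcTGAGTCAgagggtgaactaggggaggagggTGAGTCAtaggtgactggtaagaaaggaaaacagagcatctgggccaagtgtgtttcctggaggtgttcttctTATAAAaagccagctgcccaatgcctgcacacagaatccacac
Lce3a: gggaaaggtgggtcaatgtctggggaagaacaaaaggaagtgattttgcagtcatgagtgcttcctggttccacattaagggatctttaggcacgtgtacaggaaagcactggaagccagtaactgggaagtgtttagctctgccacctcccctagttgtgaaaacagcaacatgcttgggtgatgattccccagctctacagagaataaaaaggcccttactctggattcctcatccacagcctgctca
All 4 genes are on the minus strand, with windows at chr3:92083143-92083392 (Lor), chr3:92670316-92670565 (Lce1a2), chr3:92485882-92486131 (Sprr1a) and chr3:92926231-92926480 (Lce3a). In windows of 250 bases before to 50 after the start, TGANTCA was in 9 of 11 promoters of small proline-rich genes, in 0 of 6 of Lce1 genes and in 0 of 5 of Lce3 genes, against 7.81% of all 32851 promoters. TATAAA was in 10 of 11, 2 of 6 and 1 of 5, against 13.6% of all promoters. AACCGGTT, the letters of the grainyhead-like factors, was in none of these groups and in 0.146% of all promoters. For the 12 genes highest in the differentiated over the other keratinocyte spots, TGANTCA was in 4 of 12 promoters and TATAAA in 3. For the 12 lowest, which had 6 promoters, each was in 2 of 6. Lor, which was higher, and Sprr1a, which was lower, both held TGANTCA and TATAAA, while neither was found before Lce1a2 or Lce3a.

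The genes of the rule set the scale. Krt10, the partner of keratin 1 in the suprabasal layers, ran from 8929 to 83981 CPM over the f/f differentiated spots, with a median of 33786, against a median of 10043 in the other keratinocyte spots. In the K14-Cre differentiated spots it ran from 0 to 33512 CPM with a median of 4569, against 399 in the other keratinocyte spots. The level of Krt10 in the K14-Cre differentiated spots thus had a lower median than in the f/f spots that were not chosen.

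Krt1 had medians of 15586 and 3130 CPM in the differentiated spots of the f/f and K14-Cre sections, against 8896 and 613 in the other keratinocyte spots. Flg, which encodes the precursor of filaggrin and of the natural moisturising factor, had medians of 14005 and 392 CPM, against 3239 and 0. Flg UMIs were present in 100 of 100 f/f and 59 of 100 K14-Cre differentiated spots. The basal keratin Krt14 remained abundant, with 24677 and 23045 CPM in the summed differentiated spots, against 37612 and 25697 in the other keratinocyte spots. The ratio was therefore separated mostly by the differentiation genes in the K14-Cre section, where Krt10 differed by 3.03 on the log2 scale and Krt14 by -0.16, and by both in the f/f section (1.72 and -0.61).

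Among the genes that the rule did not use, few were 2-fold apart between the differentiated and the other keratinocyte spots. The f/f section had 3851 genes that reached 50 UMIs, of which 45 were at least 2-fold higher (1.17%) and 68 at least 2-fold lower (1.77%). In the K14-Cre section 67 of 2344 were higher (2.86%) and 81 lower (3.46%). The median of all genes was -0.06 on the log2 scale in each. Of the 2156 genes tested in both sections, 3 were 2-fold higher in each, namely Lor, Chit1 and Skint1. These are 25% of the 12 such genes of the f/f section and 5.17% of the 58 of the K14-Cre section. A further 7 were 2-fold lower in each, namely Sprr1a, Defb3, Has3, Gsta4, Gm5414, Rpp21 and Mpeg1 (18.4% of 38 and 9.72% of 72). Of these, Rpp21 turned to 0.17 in the K14-Cre section when the ratio used Krt10 and Krt14 alone.

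Lor, which encodes loricrin, the most abundant protein of the cornified envelope, was the clearest of these. It ran from 0 to 41584 CPM with a median of 5994 over the f/f differentiated spots, and from 0 to 12158 with a median of 746 over the K14-Cre ones. The other keratinocyte spots had medians of 2122 and 0. In sums it was at 5726 against 2043 CPM in the f/f section (log2 1.49, 1.39 to 1.58) and at 1033 against 314 in the K14-Cre section (1.72, 1.40 to 2.05). The spots of the 2 classes overlapped in both sections. After each spot was thinned to 500 UMIs, Lor was seen in 93 differentiated and 64 other spots of the f/f section, and in 36 and 12 of the K14-Cre section.

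The remaining envelope precursors and transglutaminases did not follow Lor as a group. Lor was the only one of 12 measured members to be 2-fold higher, in either section, none was 2-fold lower, and the list's median was 0.09 in the f/f and -0.01 in the K14-Cre section. Ivl, which encodes involucrin, an early scaffold of the envelope, was at 606 against 305 CPM in the f/f section (log2 0.99, 0.73 to 1.26) and at 187 against 123 in the K14-Cre section (0.60). Krtdap, a secreted protein of differentiating keratinocytes, was near equal in both, at 18515 against 17427 CPM and 9106 against 8058. The crosslinking enzymes Tgm1 (-0.18 and -0.50) and Tgm3 (-0.46 and -0.81) were, if anything, lower.

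The sums of the 2 subfamilies of late cornified envelope genes went in opposite directions, though few members were 2-fold apart and, in the f/f section, this held in only 2 of the 4 segments described below. Summed over 7 Lce1 genes, the level was 3096 CPM in the f/f differentiated spots against 1721 in the other keratinocyte spots (log2 0.85, 0.74 to 0.96), and 398 against 163 in the K14-Cre section (1.29, 0.82 to 1.78). Summed over 5 Lce3 genes, it was 3952 against 4895 CPM (-0.31, -0.39 to -0.23) and 910 against 1620 (-0.83, -1.05 to -0.62). In the f/f section 1 of 5 measured Lce1 genes was 2-fold higher and 0 of 5 Lce3 genes 2-fold lower, and in the K14-Cre section 1 of 1 and 1 of 4. Lce1a2 stood at 1314 against 744 CPM in the f/f section, and Lce3a at 1092 against 1390. Lce3 genes are those that rise in injured and psoriatic epidermis, while Lce1 genes belong to the undisturbed programme. Of the whole list, 2 of 11 measured members were 2-fold higher and 0 lower in the f/f section (median 0.56), and 1 of 5 higher and 1 lower in the K14-Cre section (median -0.91).

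The small proline-rich genes, whose proteins crosslink the envelope and which are induced by stress, were lower in the differentiated spots of each section. In the f/f section their sum was at -0.19, 0.33, -1.61 and -1.55 in the 4 segments described below. Of the measured members 3 of 10 in the f/f and 1 of 7 in the K14-Cre section were 2-fold lower and 0 higher. None had a log2 ratio above 0, against 44.0% and 44.4% of all genes, and the medians were -0.81 and -0.70. Their sum was 10638 against 18267 CPM in the f/f section (log2 -0.78, -0.83 to -0.73) and 5196 against 8409 in the K14-Cre section (-0.69, -0.79 to -0.60). Sprr1a ran from 0 to 10630 CPM with a median of 669 over the f/f differentiated spots, against a median of 2364 in the other keratinocyte spots. In the K14-Cre section its medians were 0 and 998. In sums it was at 947 against 2685 CPM (-1.50, -1.65 to -1.36) and 638 against 1528 (-1.26, -1.51 to -1.01), and its spots overlapped between the classes. Genes of the Sprr2, Lce and Krt6 families are close copies of each other, so values of single members are uncertain where probes could bind more than 1.

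The hyperproliferation keratins were lower in the f/f section, but 0 of 4 were 2-fold lower. In 1 of the 4 f/f segments described below their sum was above 0, at 0.26. Krt6a was at 4533 against 8620 CPM there (log2 -0.93), Krt6b at -0.55, Krt17 at -0.69 and Krt16 at -0.32. In the K14-Cre section the 4 values lay nearer 0, from -0.33 for Krt17 to 0.06 for Krt16. Keratins 6 and 16 form filaments together in the thickened epidermis of psoriasis and wounds.

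**Figure D3:**
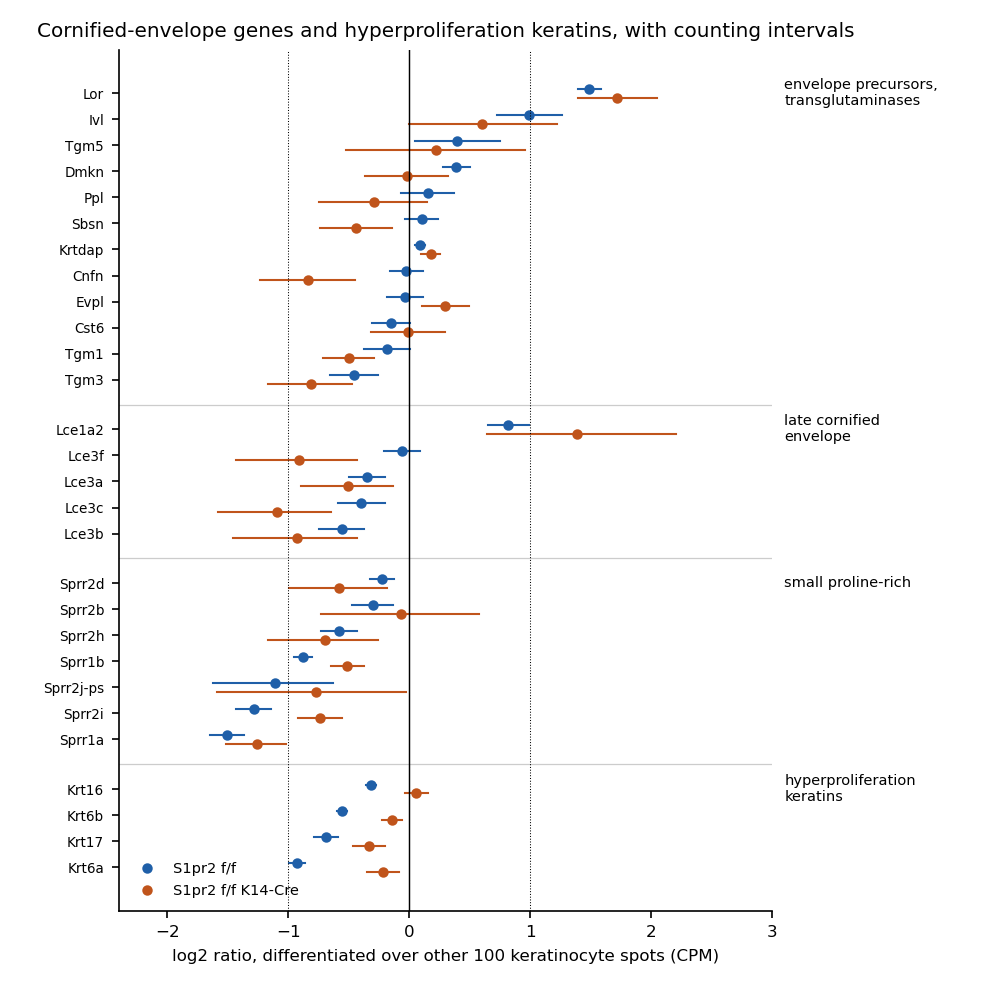
Log2 ratio of summed CPM in the 100 differentiated over the other 100 keratinocyte spots (horizontal) for each gene of the 4 lists drawn that had enough UMIs in both sections, with 95% counting intervals. Lor, at 1.49 and 1.72, lies furthest to the right in both sections, Lce3 genes lie left of 0 while Lce1a2 lies right of it, and Sprr1a, at -1.50 and -1.26, lies furthest to the left of the genes drawn in both.

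These gene groups did not all vary alike along the tissue. The 200 keratinocyte spots of each section were cut by array column into 4 segments of 50 spots, numbered from the lowest column. Krt10, which the rule used, is given for scale and was higher by 0.99 to 2.33 on the log2 scale in the f/f and by 1.80 to 4.90 in the K14-Cre section. Lor, which the rule did not use, was higher in the differentiated spots of all 4 segments (1.26 to 2.23 and 0.65 to 3.15), and so was the Lce1 sum (0.59 to 1.17 and 0.83 to 1.73). The small proline-rich sum was lower in all 4 segments of the K14-Cre section, from -1.41 to -0.13, but in the f/f section its values were -0.19, 0.33, -1.61 and -1.55. The Lce3 sum of the f/f section was 0.38 and 0.68 in segments 1 and 2, and -1.85 and -0.83 in segments 3 and 4, and Lce3a alone was at 0.17, 0.84, -2.13 and -0.74. The hyperproliferation keratin sum of that section was -0.15, 0.26, -0.64 and -1.19. In the f/f section the lower sums of small proline-rich genes, Lce3 genes and hyperproliferation keratins thus lay mostly in the part of the section that held segments 3 and 4, next to a stretch of spots under 500 UMIs and including the curled end. Single members differed from these sums: Sprr1a was lower in all 4 f/f segments (-1.08, -0.49, -2.91 and -1.91), as was Krt6a (-0.52, -0.11, -1.04 and -1.61). What part the state of the tissue had in this was not tested.

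**Figure D4:**
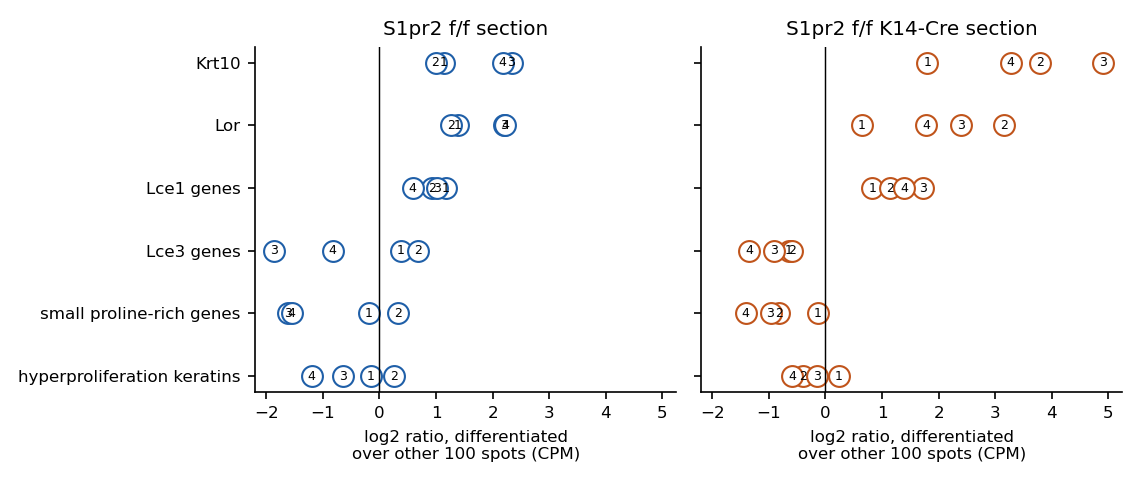
Log2 ratio of summed CPM in differentiated over other keratinocyte spots (horizontal) within each of 4 segments of 50 spots along the array columns, numbered 1 to 4 in the circles. Lor and the Lce1 sum are above 0 in all segments of both sections (Krt10 is a gene of the rule, drawn for scale), while the Lce3 sum of the f/f section is 0.38 and 0.68 in segments 1 and 2 and -1.85 and -0.83 in segments 3 and 4.

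Of the lists beyond the envelope that hold enzymes and calcium-binding proteins of the upper layers, none had a measured member 2-fold apart. This was 0 of 6 and 0 of 5 for calcium and differentiation signalling (medians 0.38 and 0.18). Within them Casp14, a protease of the upper layers that takes part in the breakdown of filaggrin, was at 3398 against 2160 CPM in the f/f section (log2 0.65, 0.55 to 0.76) and 1269 against 693 in the K14-Cre section (0.87, 0.63 to 1.11). Calm4, a calmodulin-like protein of differentiating keratinocytes, was at 16285 against 10973 and 8492 against 5027 CPM. Neither reached 2-fold in either section, though their intervals lay above 0.

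Chit1, which encodes the chitin-cleaving enzyme chitotriosidase, was at 765 against 341 CPM (log2 1.16, 0.92 to 1.41) and 769 against 188 (2.02, 1.63 to 2.45). Its level was spread unevenly, with 77 of 100 f/f and 56 of 100 K14-Cre differentiated spots holding a UMI and a highest spot of 17232 CPM in the K14-Cre section against a median of 366. The chitinase-like gene Chil1 was at 1454 against 881 and 1156 against 639 CPM. Skint1, a keratinocyte gene needed for the epidermal gamma delta T cells of the mouse, was at 176 against 77.9 and 123 against 57.0 CPM, on 35 UMIs in the K14-Cre section. Its direction in the f/f section turned when 50 of the top 100 spots were taken and when the spots were thinned to 500 UMIs.

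The desquamation proteases, barrier lipid enzymes, desmosome and junction genes were near level between the classes. None of the 21 barrier lipid enzymes measured in the f/f section and none of 12 in the K14-Cre section differed 2-fold (medians 0.12 and -0.21). The same held for 13 and 12 desquamation genes (0.12 and -0.07), 8 and 9 desmosome genes (-0.13 and 0.04), and 9 and 7 tight and adherens junction genes (-0.06 and -0.31). In the K14-Cre section 0 of these 7 junction genes were above 0, against 44.4% of all genes. The sum of that list was 1456 against 1802 CPM there (log2 -0.31, -0.49 to -0.13). Cdsn, whose product corneodesmosin rivets the outer cells together, was at 1021 against 776 CPM in the f/f and 278 against 222 in the K14-Cre section.

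Of the transcription factors of differentiation, 0 of 21 in the f/f section were 2-fold apart, and in the K14-Cre section 0 of 18 were higher and 2 lower (medians 0.08 and -0.09). Klf4, a regulator of barrier formation, was at 589 against 646 CPM and 575 against 502. Hopx, a homeodomain-only cofactor of late differentiation, was at 286 against 293 CPM in the f/f and at 49.4 against 114 in the K14-Cre section (log2 -1.18, -2.20 to -0.30). Of the basal layer genes, 0 of 9 were higher and 1 lower in the f/f section, and 0 of 9 were 2-fold apart in the K14-Cre section (medians 0.06 and -0.19). The lower one was Itgb1, a subunit of integrins that hold basal cells to their membrane, at 48.2 against 106 CPM (log2 -1.12), while it was at 116 against 88.4 in the K14-Cre section. Krt15, a keratin of basal and follicle cells, was higher in the differentiated spots, at 119 against 69.2 and 152 against 77.0 CPM, on 69 and 43 UMIs.

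Defence genes were mostly lower or level. Defb3, a beta-defensin of inflamed epithelium, was at 176 against 419 CPM in the f/f section (log2 -1.25, -1.60 to -0.91) and 59.9 against 200 in the K14-Cre section (-1.70, -2.59 to -0.96). S100a8 and S100a9, the subunits of calprotectin, were near level, with S100a9 at 15177 against 15518 and 2129 against 2216 CPM. Of the calgranulin and antimicrobial list, 0 of 11 were 2-fold higher and 2 lower in the f/f section, and 0 of 7 higher and 1 lower in the K14-Cre section.

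Among IL-1 and IL-36 family genes the receptor antagonist Il1f5 (Il36rn) was at 1409 against 990 CPM and 769 against 414. The agonist Il1f6 (Il36a) was at 837 against 798 CPM in the f/f section and 215 against 88.4 in the K14-Cre section (log2 0.07 and 1.27). The alarmin Il33 was lower, at 127 against 277 and 91.7 against 160 CPM. The psoriasis cytokines of the IL-17, IL-23 and tumour necrosis factor group summed to 25.8 against 50.2 CPM and 141 against 134, too few UMIs for single members to be compared.

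Genes of the sphingosine 1-phosphate pathway were sparse. All 5 measured members were above 0 in the f/f section (median 0.78), against 44.0% of all genes. Of these 1 was 2-fold higher, against 1.17% of all genes, and in the K14-Cre section 0 of 2 were 2-fold apart. Sphk1, a kinase that makes sphingosine 1-phosphate, was at 138 against 58.9 CPM in the f/f section (1.22, 0.63 to 1.85) and 74.0 against 51.3 in the K14-Cre section (0.52). Spns2, which exports it, was level in each section, at 324 against 317 and 98.7 against 97.0 CPM.

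Set against all other spots with at least 500 UMIs, the differentiated spots were higher in envelope genes, a trait largely shared with the other keratinocyte spots. In the f/f section the envelope precursors summed to 35184 CPM in the differentiated, 29764 in the other keratinocyte and 13720 in all other spots. In the K14-Cre section these sums were 15508, 14577 and 3488 CPM. Here 403 of 10762 genes were at least 2-fold higher in the f/f section (3.74%) and 3301 lower (30.7%), and in the K14-Cre section 1213 of 9507 were higher (12.8%) and 2128 lower (22.4%). The counts of higher genes became 962 and 932 with TMM scaling, and 1352 and 2034 with spots thinned to 500 UMIs. The envelope precursor list had 11 of 13 and 12 of 12 members 2-fold higher, with medians of 1.27 and 1.73 against -0.49 and -0.09 over all genes, and the late cornified envelope list 9 of 11 and 9 of 9. Other lists followed in part, with 9 of 22 and 12 of 18 barrier lipid enzymes, 3 of 10 and 4 of 7 small proline-rich genes and 5 of 21 and 13 of 21 transcription factors 2-fold higher. The small proline-rich sums were, as given above, lower than in the other keratinocyte spots. Of the basal layer genes, 0 of 16 were higher and 4 lower in the f/f section, and 6 of 14 were higher and 2 lower in the K14-Cre section. Genes were ranked by the lower of their 2 section values. Lor came first, at 2.66 and 3.50, and Casp14 (2.09 and 3.14), Fetub (2.36 and 2.36), Krt78 (2.15 and 2.19) and Serpinb12 (2.12 and 2.59) were among the 8 highest in that rank. Fetub encodes a plasma protease inhibitor of the cystatin family, Krt78 a suprabasal keratin, and Serpinb12 a serine protease inhibitor.

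Markers of fibroblasts and muscle were lower but not absent in the differentiated spots. All 9 fibroblast markers and all 9 skeletal muscle markers were at least 2-fold lower than in the other spots of each section. Muscle markers, of which Acta1 was the most abundant, summed to 770 CPM in the f/f and 2306 CPM in the K14-Cre differentiated spots, against 685 and 2335 in the other keratinocyte spots and 20796 and 70819 in all other spots. Fibroblast markers, led by Col3a1, summed to 3763 and 5440 CPM, against 4139 and 7736 in the other keratinocyte spots. The 2 keratinocyte classes thus held alike amounts of muscle RNA, and the differentiated spots of the K14-Cre section held less fibroblast RNA. Immune cell markers, led by Cd74, summed to 1435 and 1495 CPM. None of the markers of these lists was at 0 in the differentiated spots of either section, and their part in the contrasts was not tested. Krt2 and Krt77, keratins of undisturbed suprabasal epidermis, were near 0, with 2 and 7 UMIs in the f/f and 3 and 4 in the K14-Cre differentiated spots.

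The differentiated spots of the 2 sections were then set side by side as the 2 labelled genotypes. With 1 section per genotype, the genotype, the mouse, the section and the library cannot be told apart. With a minimum of 100 UMIs, 1441 genes were compared, and 186 reached a 2-fold higher level in the K14-Cre section (12.9%) and 264 a 2-fold lower one (18.3%). With TMM scaling, which moved all genes by -0.68 on the log2 scale, these became 43 higher and 552 lower. With the level of the receptor probes described below taken off as background, they became 250 higher and 221 lower. In the other keratinocyte spots 213 of 1636 genes were higher (13%) and 238 lower (14.5%). The chemosensory receptor probes summed to 10329 CPM in the K14-Cre and 1603 CPM in the f/f differentiated spots, a 6.44-fold difference, and all 5 measured muscle markers were higher in the K14-Cre spots (median 1.63). The keratinocyte genes of the rule made up a median of 9.82% of UMIs in the f/f differentiated spots and 4.69% in the K14-Cre ones. The part of these differences in the values below was not tested, beyond the alternatives given.

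Late differentiation genes were lower in the K14-Cre differentiated spots. All 10 measured late cornified envelope genes were at least 2-fold lower (median -2.54), as were 8 of 12 envelope precursors (median -1.30), 3 of 6 small proline-rich genes (-1.45), 8 of 12 desquamation genes (-1.46) and 7 of 16 barrier lipid enzymes (-0.82). The median of all genes was -0.07, and no member of these 5 lists with at least 100 UMIs was 2-fold higher. That minimum was summed over both sections and met mostly through the f/f spots. The late cornified envelope genes held 4298 UMIs there against 379, so members low in the f/f spots could fall below it. With no minimum, 12 of 13 late cornified envelope genes were 2-fold lower and 1 higher. Of the 12 small proline-rich genes, 5 were then 2-fold lower and 1 higher. Repetin, a fused S100 protein encoded by Rptn, was at 1970 CPM in the f/f and 95.2 CPM in the K14-Cre spots (log2 -4.35, -4.98 to -3.82). Lor was at 5726 and 1033 CPM (-2.47, -2.65 to -2.30), and Alox12b, a lipoxygenase of the lipid envelope, at 332 and 52.9 CPM (-2.61). Chit1, in contrast, was at 765 and 769 CPM (0.01, -0.23 to 0.24), at -0.67 with TMM scaling, and at 1.57 in the spots of like ratio described below.

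The other keratinocyte spots differed in the same direction. There the same lists had medians of -1.99, -1.07, -1.14, -1.43 and -0.60, and Rptn was at -3.76 and Lor at -2.70. Of the genes that chose the spots, given as a description, Flg was at 14375 and 871 CPM and Krt10 at 36599 and 6511 CPM in the differentiated spots, and Krt14 at 24677 and 23045.

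The spots of the 2 sections also differed in the ratio that chose them, so keratinocyte spots with a ratio between 0.5 and 2 in both sections were compared as well, 102 in the f/f and 39 in the K14-Cre section. This alternative was added after the values were seen. Lor was then at -0.23 instead of -2.47 and Casp14 at -0.43 instead of -1.42, and Calm4 turned from -0.94 to 0.18. Rptn stayed at -4.21, Ivl at -1.32 and S100a9 at -2.72. The medians were -1.34 for late cornified envelope genes, -0.93 for envelope precursors, -2.05 for small proline-rich genes, -0.85 for desquamation genes and -0.38 for barrier lipid enzymes.

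Of 3 measured cell cycle genes 2 were 2-fold higher in the K14-Cre differentiated spots (median 1.42, or 0.74 with TMM scaling). Of 15 transcription factors 2 were 2-fold higher and 3 lower (median -0.27), against 12.9% and 18.3% of all genes. Of the adhesion lists, 0 of 8 desmosome genes were 2-fold higher and 4 lower, and 0 of 6 tight and adherens junction genes were 2-fold apart. Rela and Nfkb1, subunits of the transcription factor NF-kB, were at 405 against 133 CPM (log2 1.61, 1.18 to 2.05) and 353 against 133 (1.41, 0.97 to 1.86). Of 17 listed genes from MyD88 to NF-kB, only 4 reached the minimum of UMIs. Of these 4, 2 were 2-fold higher and 1, Nfkbia, lower, with a median of 0.97, or 0.29 with TMM scaling. The sum of all 17 was at 1467 against 1054 CPM (log2 0.48, 0.29 to 0.66). Itgb4, a subunit of the integrin that anchors basal cells, was at 384 against 131 CPM (1.55), and Hes1, a target of Notch signalling, at 240 against 82.7 (1.53). Slpi, a protease inhibitor of inflamed epithelium, was at 800 against 284 CPM, while S100a9 was at 2129 against 15177 (-2.83) and Il1f6 at 215 against 837 (-1.95). With TMM scaling Rela, Nfkb1, Itgb4, Hes1 and Slpi were at 0.93, 0.73, 0.88, 0.86 and 0.82, all under 2-fold. In the spots of like ratio Rela was at 1.58 and Nfkb1 at 1.44, and the median of the 4 MyD88 to NF-kB genes was 1.10. In the other keratinocyte spots Nfkb1 was at 1.60, Rela at 0.92 and Slpi at 1.54.

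The genes with the largest ratios in each direction were of different kinds. The highest were Hist1h1a, a linker histone (871 against 138 CPM, log2 2.65), Cyb5b, Car3, Lima1, Chchd1, Tnnc2, Id1, Dkc1, Med4 and Wnt10a, the last at 2.17. Hist1h1a was at 1.98 with TMM scaling and 1.47 in the spots of like ratio, and Cyb5b at 1.90 and 1.11. Tnnc2 encodes the troponin C of fast muscle, and Car3 a carbonic anhydrase abundant in muscle and fat. Among the lowest were Pdlim2 (7.05 against 196 CPM, on 2 UMIs), Rptn, Pof1b, Lce6a, Lce1c, Gm94, Hal, 2310050C09Rik and Kprp, the last at -3.31. Hal, which encodes the enzyme that turns histidine into urocanic acid in the outer epidermis, was at 21.2 against 236 CPM (-3.37, -4.95 to -2.32). Within the f/f section Hal was also higher in the differentiated than in the other keratinocyte spots, at 236 against 48.5 CPM (2.26, 1.69 to 2.93), on 137 and 28 UMIs. The K14-Cre section gave 6 and 5 UMIs.

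**Figure D5:**
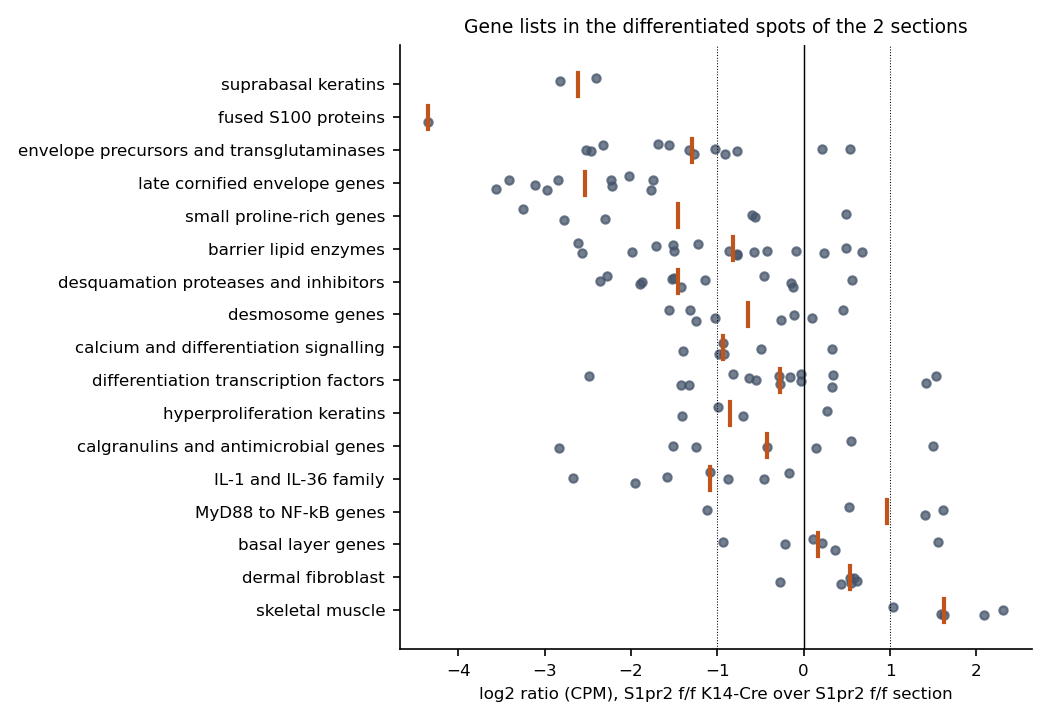
Log2 ratio of CPM in the K14-Cre over the f/f differentiated spots (horizontal) for each gene with at least 100 UMIs (points) and the median (bar) of each gene list. All 10 late cornified envelope genes drawn, of 13 in the files, lie below -1 with a median of -2.54. All 5 skeletal muscle markers drawn lie above 1 with a median of 1.63.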

How the data were processed

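Spatial transcriptomes of 2 sections (10 µm, formalin-fixed, Visium CytAssist) were analysed from the UMI counts per spot and gene that the authors deposited, unnormalised, for 19465 genes. Per the labels and file headers these were made with Space Ranger 3.0.0 against mm10. A probe panel reads a short part of each transcript, so levels of different genes are not comparable per molecule.

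Counts were summed over the spots of each class and divided by their total (CPM). Genes needed at least 50 UMIs within a section or 100 between sections to be counted as 2-fold apart, and the 10 genes of the rule were left out of these counts. Ratio intervals are conditional binomial, shares Clopper-Pearson, at 95%. The intervals were run on simulated counts drawn with counting error only, which cannot show how they hold under the spread between spots. Named genes were the 12, 8 or 10 with the most extreme ratios per comparison (within sections, ranked by the less extreme of the 2 sections) and the members of 30 lists (352 genes, 333 in the files, 4 of them under an older symbol). The members and lists were chosen with earlier results of these data known. The 15 alternatives covered spot choice, depth, scaling, background and gene minimums. Python 3.11.15 with numpy 2.4.6, scipy 1.17.1 and pandas 2.3.3, and edgeR 4.0.16 (TMM factors), were used. A gene that met the rule for named genes is not reported here.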

Additional observations from a re-analysis of the deposited data

Results flagged for a closer look

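Chchd7, a gene of a mitochondrial protein family, was the only gene measured in both sections that was 2-fold lower in the differentiated than in the other keratinocyte spots of the f/f section and 2-fold higher in the K14-Cre section. This was 1 of 2156 genes, of which 38 were 2-fold lower in the f/f section and 58 were 2-fold higher in the K14-Cre section. Its log2 ratio was -1.04 in the f/f section, on 31 against 64 UMIs, and 1.29 in the K14-Cre section, on 42 against 21 UMIs. The difference between the sections was not tested.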

How the results depend on the processing

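With 1 section per genotype, differences between the sections have no replicate check. No paired analysis was possible because each genotype had 1 section. Depth limited genes under 50 UMIs, and the K14-Cre differentiated spots had a lower median depth than the f/f ones. Of 3139 gene values under the alternatives 2743 stayed within their counting interval, 392 moved out of it and 4 changed sign from a main value of at least 2-fold (sign changes of smaller values were counted by the interval alone). Of 808 list medians 752 stayed within 2 standard errors and 56 moved. Counts of genes 2-fold apart depended on the gene minimum and the depth of each spot, and the cause was not tested.

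Against the other keratinocyte spots, the f/f section gave 45 higher and 68 lower genes and the K14-Cre section 67 and 81. With the mean of spot CPM these were 130 and 185 in the f/f section, with 129 lower in the K14-Cre section. With every spot thinned to 500 UMIs they were 534 and 566, and 237 and 327. With a gene minimum of 30 UMIs they were 131 and 189, and 234 and 244, and with a minimum of 100 UMIs 20 and 18, and 6 and 10. With 50 of the top 100 spots, 29 were higher in the f/f section, and 31 higher and 51 lower in the K14-Cre section, where the share among the 2 uppermost spots was 98%. With 150 of the top 300 spots, 150 were lower in the K14-Cre section.

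Against all other spots, the 403 higher genes of the f/f section became 1352 in thinned spots and 962 with TMM scaling. The 1213 of the K14-Cre section became 2034 in thinned spots, 2038 with a gene minimum of 30 and 664 with a minimum of 100. Between the sections, 186 higher and 264 lower genes became 43 and 552 with TMM scaling, 76 and 108 with 50 of the top 100 spots, 357 and 423 with a minimum of 60 UMIs, and 75 and 125 with a minimum of 200. With the ratio between 0.5 and 2, which was added after the values were seen, 96 of 1072 genes were higher and 261 lower.

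Skint1 turned in the f/f section to -0.17 with 50 of the top 100 spots and to -0.65 in thinned spots. Rpp21 turned in the K14-Cre section to 0.17 when the ratio used Krt10 and Krt14 alone. Fetub turned between the sections to 1.15 with the ratio between 0.5 and 2.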
